A study of Mus musculus with 16 samples.

Results

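The response to isoamyl acetate was examined in the sorted olfactory cells whose libraries are titled GFP+, by comparing 4 odor libraries with 4 vehicle libraries. These 8 libraries, of 16 in the series, were chosen by their titles and by no measured value, although with earlier results of these data known. They hold less S100a5 signal than the libraries titled GFP-, and they also hold immune, supporting and progenitor cell RNA. Each library is 1 pool of 3 mice, so the 4 replicates of a group are separate pools.

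All mice were C57BL/6 carrying the S100a5-tauGFP reporter, in which GFP marks olfactory neurons that express S100a5. The labels describe 24 mice of both sexes, aged 7 to 12 weeks, kept singly in chambers with an air flow of 3.1 L per minute. From hour 26 of a stay of 40 hours, the odor groups received isoamyl acetate and the vehicle groups filtered air, in pulses of 10 seconds every 20 minutes. Olfactory mucosa was then dissociated and sorted, and RNA was read on Clariom S arrays. Neither the sort gates nor the sex of each pool is stated in the labels.

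Isoamyl acetate is a volatile ester with a fruity smell. An odorant binds a receptor of the Olfr family on the cilia of an olfactory sensory neuron, each of which expresses mainly 1 such receptor, and opens a cyclic nucleotide-gated channel through Gnal and Adcy3. Calcium entry then induces immediate-early genes within minutes and, with sustained stimulation, a slower set of activity-dependent genes that includes S100a5 itself. The epithelium also holds sustentacular cells rich in detoxifying enzymes, mucus glands, microvillar cells, basal progenitors and blood-derived cells. In such bulk libraries, fewer cells of a type and less RNA per cell cannot be told apart.

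The labelled tissue was borne out by its markers. Omp, which marks mature olfactory neurons, lay between 17.99 and 18.35 on the log2 scale in the 8 libraries. The mean of 28 mature neuron markers lay between 15.61 and 16.01. S100a5 ranged from 14.69 to 15.94 here and from 16.14 to 16.95 in libraries titled GFP-, so the ranges did not overlap and the title ran against the reporter gene. In all 16 samples the GFP sign in the title and that in the cell type label are opposed. The mean of 26 neutrophil markers lay between 11.07 and 12.86 here, against 5.10 to 5.93 in libraries titled GFP-. Endothelial markers averaged 4.44 to 4.64, below the negative control medians of 5.15 to 5.56.

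Odor replicate 1 stood apart from the other 7 libraries. Its neutrophil mean was 12.86 and its sustentacular mean 11.15, both the highest of the 8, and its mature neuron mean of 15.61 and odorant receptor mean of 8.15 were the lowest. Array medians lay between 6.79 and 6.90 and did not differ between odor and vehicle (exact permutation p = 0.914, two-sided). The Y-linked gene Eif2s3y lay between 9.89 and 10.55 in the pools numbered 1 and 2 of both agents, and between 2.53 and 3.49 in those numbered 3 and 4. Uty (9.38 to 10.57 against 2.91 to 3.31) and Kdm5d (5.90 to 7.30 against 2.29 to 2.81), also Y-linked, split likewise. Male RNA was thus seen in pools 1 and 2 only. A contrast between these pool sets cannot be told apart from one between sexes. Same-numbered odor and vehicle libraries tended to deviate together, so values with the replicate number as a block are given beside the unpaired ones. Odor replicate 4, however, correlated more with vehicle replicate 3 (0.19) than with vehicle replicate 4 (0.17). The pairing was set from the values that were then tested.

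No gene passed the threshold in the unpaired comparison of odor with vehicle. Of 22206 tested probe sets, 0 (0%) had an adjusted p below 0.05 by limma, and the smallest adjusted p was 0.273. At an unadjusted p below 0.05 there were 894 (4.03%), of which 453 (2.04%) were higher with odor and 441 (1.99%) lower. With the replicate block 1 probe set was called (0.0045%), that of Pcdh10, and 1379 (6.21%) had an unadjusted p below 0.05. Without odor replicate 3 the unpaired count at that p was 1466, with 3.57% higher and 3.04% lower. With any 1 library left out, 1.65% to 3.57% of all probe sets were higher and 1.51% to 3.04% lower. With the block and any pair left out, 2.18% to 3.79% were higher and 2.02% to 3.54% lower. Of all genes 47.1% had a difference above 0 and 52.9% below. The 4 odor and 4 vehicle values did not overlap for 583 probe sets (2.63%), with odor higher for 281 (1.27%) and lower for 302 (1.36%). The unadjusted 95% interval of a difference reached a median of 0.393 to either side on the log2 scale. After adjustment over all probe sets the limit was wider, since Pcdh10 at 2.56 and Camk2n1 at 1.17 were not called in the unpaired fit.

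S100a5, the reporter gene, did not pass the test. Its log2 signal was 15.46, 15.94, 15.23 and 15.34 in odor replicates 1 to 4 and 15.66, 15.55, 14.69 and 14.95 in vehicle. The groups overlapped, and odor was higher in 3 of 4 same-numbered pairs. The difference was 0.28 (SE 0.24, 95% interval -0.26 to 0.81, adjusted p = 0.982). An exact two-sided permutation test gave p = 0.371, where the smallest possible with 4 against 4 is 0.0286. Leaving out 1 library at a time gave differences between 0.11 and 0.43.

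The clearest difference was in Pcdh10, a homophilic cell adhesion protein of the protocadherin family, which was about 6 times as high with odor. Its log2 signal was 10.20, 10.98, 9.91 and 10.65 in odor and 8.42, 8.46, 7.17 and 7.44 in vehicle. Every odor library lay above every vehicle library, and the lowest odor value exceeded the highest vehicle value by more than the SD of either group. The difference was 2.56 (SE 0.33, 95% interval 1.83 to 3.30, 5.91-fold, adjusted p = 0.273). With the replicate block Pcdh10 rose with an adjusted p of 0.0314, and it was also called with all 16 arrays in 1 fit (adjusted p = 0.0384), which called 2 probe sets (0.00901%). The block fit lost the call when pair 2, 3 or 4 was left out, and kept it without pair 1 (adjusted p = 0.0145).

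Camk2n1, an inhibitor of the calcium and calmodulin-dependent kinase CaMKII, was 8.29, 8.94, 8.85 and 8.47 in odor and 7.27, 7.57, 7.45 and 7.60 in vehicle. The groups did not overlap, and the difference was 1.17 (SE 0.17, 2.25-fold, adjusted p = 0.468). It was called only in the fit of 16 arrays (adjusted p = 0.0384), with an adjusted p of 0.155 under the replicate block. Sema7a, a membrane-anchored semaphorin that acts on axons and dendrites, was 13.77, 13.94, 13.69 and 13.85 in odor and 13.28, 13.25, 13.12 and 12.85 in vehicle. Its difference of 0.69 (SE 0.14, adjusted p = 0.982) passed neither fit, although again no odor library fell among the vehicle values. In libraries titled GFP- the corresponding differences were 2.98 for Pcdh10, 1.64 for Camk2n1 and 0.93 for Sema7a. All 3 were called there in the fit of 16 arrays, among 4 probe sets in all (0.018%). For libraries titled GFP+ the same fit called Pcdh10 and Camk2n1 but not Sema7a (adjusted p = 0.416). The difference between the sorts was not significant for any of the 3 (interaction adjusted p = 1).

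**Figure D1:**
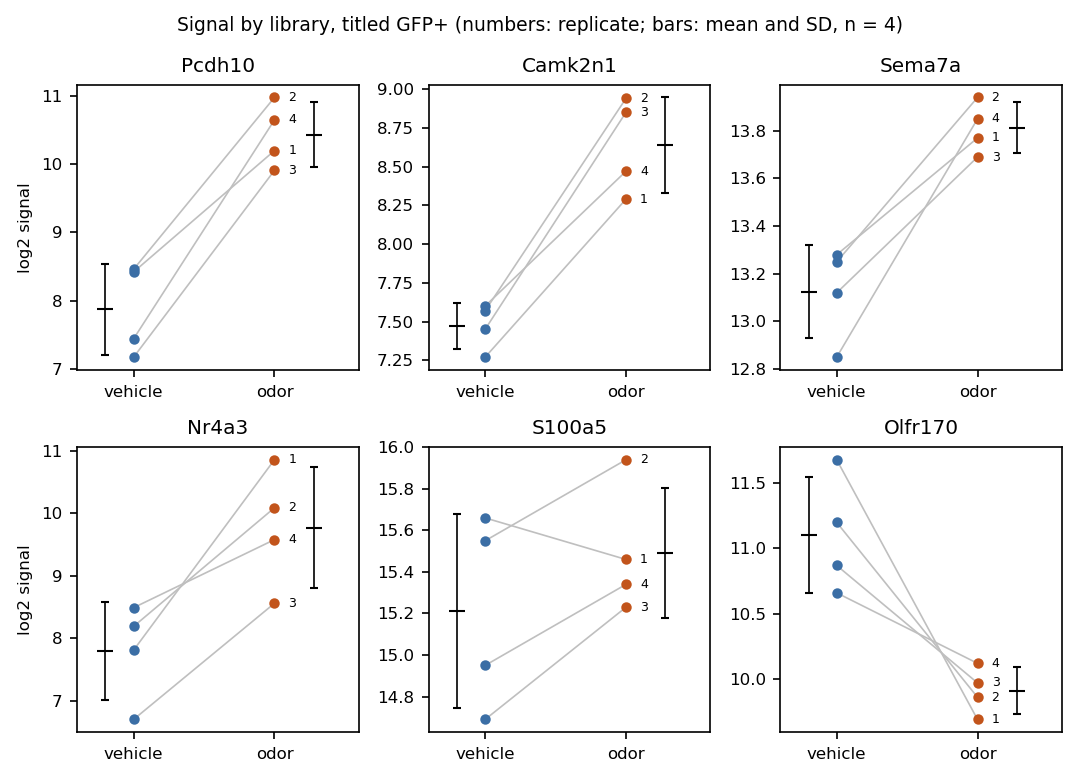
Log2 signal (vertical axis, a separate scale per panel) of 6 genes in the 4 vehicle and 4 odor libraries titled GFP+, with lines joining libraries of the same replicate number and bars giving mean and SD. Odor values of Pcdh10, Camk2n1, Sema7a and Nr4a3 all lie above the vehicle values, those of Olfr170 all lie below, and those of S100a5 overlap.

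These 3 genes belong to a list of activity-dependent genes of olfactory neurons, of which 19 were measured. Only these 3 reached an unadjusted p below 0.05 in the unpaired fit, all higher, where 2.04% of all probe sets were, and the median difference of the list was 0.26 against -0.01 over all genes. The median was 0.13 without odor replicate 2, 0.17 without vehicle replicate 1 and 0.11 without vehicle replicate 3, and the count was 5 without vehicle replicate 1. With the block 6 were higher and 1 lower, where 3.19% and 3.02% of all probe sets were, and without pair 2 the higher count was 4. The lower one was Kirrel3, an adhesion protein of olfactory axons, at -0.46, singled out after its value was seen. The mean of the list was higher with odor in all 4 pairs, by 0.23, 0.43, 0.37 and 0.30. That mean included Pcdh10, Camk2n1 and Sema7a, each of which was itself higher in all 4 pairs. The list was made with earlier results of these data known. Its counts beside those of all probe sets are therefore descriptive and not an independent test.

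Among the other genes whose groups did not overlap, Rtn4rl2, a Nogo receptor relative of neurons, was 6.58, 6.65, 6.89 and 6.64 in odor and 5.96, 6.05, 6.22 and 6.03 in vehicle, a difference of 0.62. Lat2, an adaptor of immune receptor signalling, differed by 0.64. Fmo5, a flavin monooxygenase, was 7.02, 7.10, 6.47 and 6.85 in odor against 6.05, 6.43, 6.14 and 5.79 in vehicle, a difference of 0.76. All 3 had an adjusted p of 0.982. Car13, Vmn1r207 and Susd2 also separated, by 0.70, 0.57 and 0.70, but Car13 and Vmn1r207 lay above the median negative control in none of the 8 libraries and Susd2 in 1.

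Most immediate-early genes had a difference above 0. These are transcription factors and signalling regulators that neurons and immune cells induce within minutes of stimulation, and cell dissociation also induces them. Of 36 measured, 32 (88.9%) had a difference above 0, against 47.1% of all genes. The median was 0.51 against -0.01 for all genes. Unpaired, 8 of 36 had an unadjusted p below 0.05, all higher, where 2.04% of all probe sets did. With the block 20 were higher and 0 lower, where 3.19% and 3.02% of all probe sets were. None was called after adjustment in either fit. Odor was higher in all 4 pairs for 14 of the 36, against 6.34% of all probe sets.

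Nr4a3, an orphan nuclear receptor, led the list. It was 10.86, 10.09, 8.56 and 9.58 in odor and 7.81, 8.19, 6.70 and 8.49 in vehicle. The odor libraries lay above all vehicle libraries, with odor replicate 3 and vehicle replicate 3 the lowest of their groups. The difference was 1.98 (SE 0.49, 3.93-fold, adjusted p = 0.982, and 0.160 with the block). In libraries titled GFP- Nr4a3 lay between 4.48 and 5.24 and differed by 0.29.

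Its relative Nr4a2 was 9.99, 10.21, 8.95 and 9.25 in odor and 8.89, 8.53, 7.65 and 9.19 in vehicle, a difference of 1.03. These groups overlapped at 1 library, vehicle replicate 4. Fosl1, a partner of Jun in the AP-1 factor, differed by 0.62 with odor higher in 3 of 4 pairs. Nr4a1 and Fos, singled out after their values were seen, differed by 1.02 and 0.86 with odor higher in all 4 pairs. In libraries titled GFP- Nr4a2, Nr4a1 and Fos differed by 0.68, 0.79 and 0.75, uncalled, and the median of the whole early gene list was 0.09. Npas4, an early gene largely restricted to neurons and named for contrast, lay between 3.00 and 3.39 in the 8 libraries, below the negative control, and Arc, another neuronal early gene, lay between 4.81 and 5.42.

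The size of the early gene difference depended on the libraries. The mean of the 36 was 10.48, 10.25, 9.50 and 10.04 in odor and 9.62, 9.79, 9.02 and 9.81 in vehicle. Odor replicate 3 thus lay below 3 of the 4 vehicle libraries and above its own pair. The pair differences were 0.86, 0.46, 0.48 and 0.23. The unpaired count of 8 was 2 without odor replicate 1 or vehicle replicate 3, 3 without odor replicate 2 or vehicle replicate 1, and 21 without odor replicate 3. In the last of these fits 3.57% of all probe sets were higher. The median of 0.51 was 0.31 without odor replicate 1 and 0.31 without vehicle replicate 3. With the block and each pair left out in turn it stayed between 15 and 20 higher, with 1 lower when pair 4 was left out. Within pools 1 and 2 the unpaired fit gave 20 higher, and within pools 3 and 4 it gave 3. Of all probe sets 3.05% and 2.98% were higher in those fits. With the mean of neutrophil and macrophage markers as a covariate, 10 were higher and the median was 0.28.

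Promoter windows of the NR4A genes and of Pcdh10 are shown because Pcdh10 was the gene called with the block and the NR4A genes are early genes on whose promoters cyclic AMP and calcium act through the CREB factor. They were picked after their values were seen, and other genes differed more than Nr4a2 and Nr4a1. The sequences are the 250 bases before the start of each gene, from RefSeq on GRCm38.p6, in the direction of transcription. Capitals mark TGACG, the core of the cyclic AMP response element, on either strand. The windows are chr3:45378148-45378397 on the plus strand for Pcdh10, chr4:48045055-48045304 on the plus strand for Nr4a3, chr2:57124004-57124253 on the minus strand for Nr4a2 and chr15:101266596-101266845 on the plus strand for Nr4a1.
Pcdh10: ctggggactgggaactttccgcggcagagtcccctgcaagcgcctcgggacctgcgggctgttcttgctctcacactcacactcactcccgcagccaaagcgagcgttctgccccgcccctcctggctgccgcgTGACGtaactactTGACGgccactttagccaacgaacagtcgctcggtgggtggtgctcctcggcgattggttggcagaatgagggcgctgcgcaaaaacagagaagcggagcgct
Nr4a3: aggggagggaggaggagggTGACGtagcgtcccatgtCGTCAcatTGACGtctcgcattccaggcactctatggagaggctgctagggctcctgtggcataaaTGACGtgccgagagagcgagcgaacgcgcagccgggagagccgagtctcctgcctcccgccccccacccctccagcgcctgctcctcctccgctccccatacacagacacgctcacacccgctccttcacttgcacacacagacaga
Nr4a2: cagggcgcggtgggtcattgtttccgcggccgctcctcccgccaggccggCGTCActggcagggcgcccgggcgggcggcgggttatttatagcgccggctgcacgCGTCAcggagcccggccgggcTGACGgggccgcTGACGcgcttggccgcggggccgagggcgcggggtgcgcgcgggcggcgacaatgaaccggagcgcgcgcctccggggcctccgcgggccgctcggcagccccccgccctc
Nr4a1: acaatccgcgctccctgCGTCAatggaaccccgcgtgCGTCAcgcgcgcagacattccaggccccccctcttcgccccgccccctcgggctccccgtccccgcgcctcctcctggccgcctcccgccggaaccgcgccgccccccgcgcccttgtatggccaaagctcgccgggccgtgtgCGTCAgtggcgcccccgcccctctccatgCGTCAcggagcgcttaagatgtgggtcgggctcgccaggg

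The Pcdh10 window held 2 such cores and each of the 3 NR4A windows held 4. The full palindrome TGACGTCA was in none of the 4. Over all 32851 windows of 250 bases, 17.8% held TGACG and 1.55% held TGACGTCA, searched on both strands, with every full site counted among the cores. Of 37 windows of 29 immediate-early genes, 22 (59.5%) held TGACG and 3 (8.11%) TGACGTCA. Of 21 windows of 16 inflammatory cytokine genes, 2 (9.52%) held TGACG. Of 23 windows of 16 activity-dependent genes, the list that holds Pcdh10, 4 (17.4%) held TGACG and 0 held TGACGTCA. The Sema7a window held neither. A match describes letters in a window, and base composition, which differs between promoters, was not matched.

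**Figure D2:**
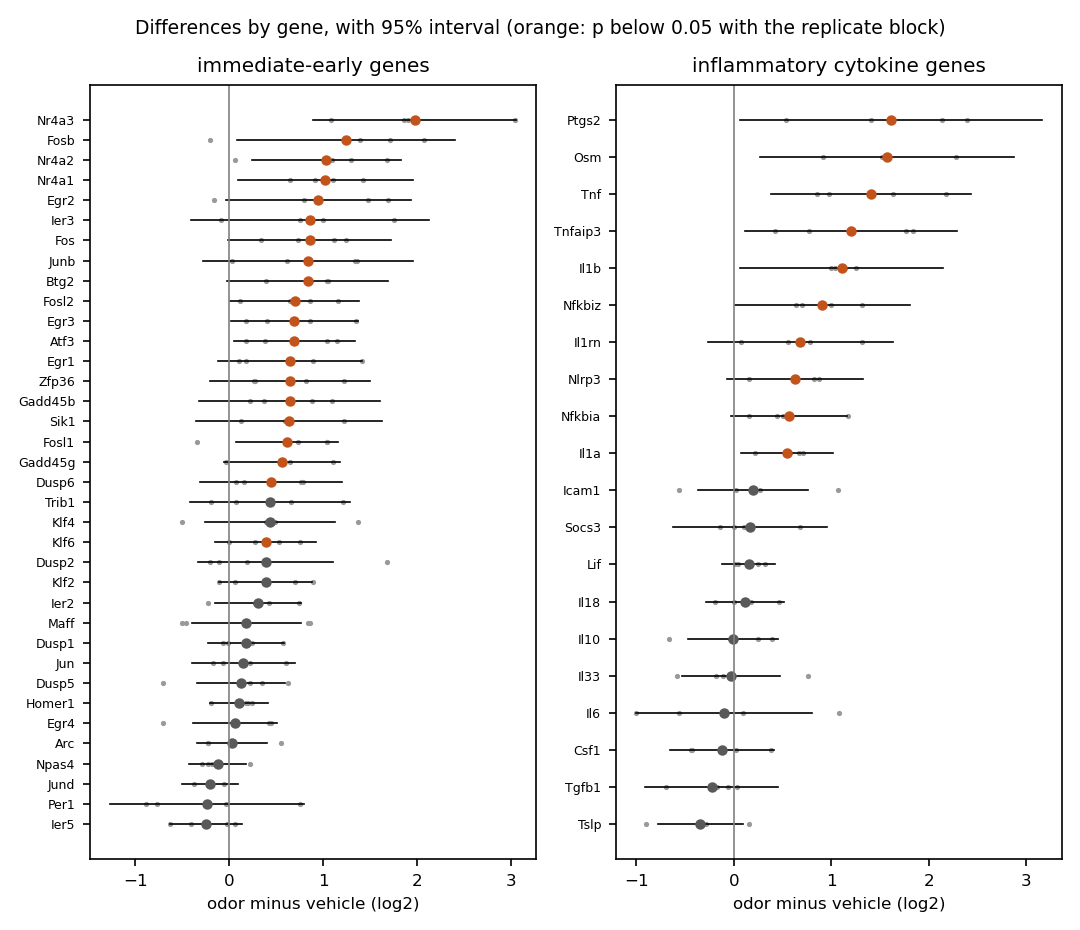
Odor minus vehicle difference on the log2 scale (horizontal axis) of each of 36 immediate-early genes and 20 inflammatory cytokine genes, as the estimate with its 95% interval from the unpaired fit. Small grey points are the 4 same-numbered pairs, and orange marks the 20 and 10 genes with an unadjusted p below 0.05 in the fit with the replicate block.

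Of 20 inflammatory cytokine genes and regulators measured, 14 had a difference above 0 and 6 below, with a median of 0.37. At an unadjusted p below 0.05, 7 were higher in the unpaired fit (2.04% of all probe sets) and 10 with the block (3.19%), and none was lower. None was called after adjustment in either fit. Odor was higher in all 4 pairs for 11 of 20. Tnf, the tumour necrosis factor, was 9.38, 8.07, 7.83 and 8.47 in odor and 7.75, 7.09, 5.65 and 7.62 in vehicle. Its groups did not overlap, and the difference was 1.41 (SE 0.46, adjusted p = 0.982, and 0.282 with the block).

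Osm, which encodes the cytokine oncostatin M, was 10.11, 9.74, 7.60 and 9.26 in odor and 7.83, 8.16, 6.08 and 8.34 in vehicle. Odor replicate 3 lay below all vehicle libraries but its own pair, and the difference was 1.57 (SE 0.59, adjusted p = 0.982, and 0.155 with the block). Il1a, an interleukin-1 ligand, differed by 0.55. Ptgs2, the inducible prostaglandin synthase, singled out after its value was seen, differed by 1.61 (SE 0.70). Il6, Il10 and Il33, named for contrast, differed by -0.10, -0.01 and -0.03.

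The mean of the 20 cytokine genes was 8.43, 7.98, 7.27 and 7.96 in odor and 7.60, 7.62, 6.76 and 7.66 in vehicle, so the pairs differed by 0.83, 0.36, 0.51 and 0.30. The unpaired count of 7 was 1 without odor replicate 2 or vehicle replicate 3, and 2 without odor replicate 1 or 4. With the block it stayed at 9 or 10 higher whichever pair was left out, with 1 lower without pair 1. With the immune marker covariate it was 10. Within pools 1 and 2 it was 9 higher and 0 lower, and within pools 3 and 4 it was 2 higher and 2 lower. Of all probe sets 3.05% were higher and 2.47% lower within pools 1 and 2, and 2.98% and 2.23% within pools 3 and 4.

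The mean of the neutrophil markers was higher with odor in 3 of 4 pairs. Of 26 measured, 24 had a difference above 0, against 47.1% of all genes, with a median of 0.37. An unadjusted p below 0.05 was reached by 2, both higher (2.04% of all probe sets). With the block 7 were higher (3.19%), and none was called in either fit. The median was 0.11 without odor replicate 1 and 0.74 without odor replicate 3. Il1b, the interleukin-1 beta that activated neutrophils and macrophages produce, was 13.69, 13.20, 11.88 and 13.42 in odor and 12.55, 12.20, 10.63 and 12.38 in vehicle. Only odor replicate 3 fell among the vehicle values, and the pairs differed alike, giving 1.11 (SE 0.47, adjusted p = 0.982, and 0.155 with the block). Trem1, a receptor that amplifies neutrophil activation, differed by 1.15 with the same adjusted p in both fits. G0s2, an inhibitor of lipolysis that is high in neutrophils, differed by 0.75. In libraries titled GFP- Il1b, Trem1 and G0s2 differed by 0.83, -0.13 and 0.06, uncalled.

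Ngp, Lcn2 and S100a8, named as defining markers of neutrophils, differed by 0.24, 0.21 and 0.33 at log2 levels between 14.85 and 17.94. They were not taken in list order. The median of the list was 0.37. Il1b, Trem1 and G0s2 had the smallest p of the list, so their larger differences follow in part from that choice. The mean of the 26 was 12.86, 12.22, 11.07 and 12.34 in odor and 12.01, 11.82, 11.33 and 11.78 in vehicle. Odor replicate 3 was thus the lowest of all 8 libraries for neutrophil markers, whereas its cytokine mean exceeded that of vehicle replicate 3. The unpaired count of 2 ranged from 0, without odor replicate 1 or 4 or vehicle replicate 3, to 17 without odor replicate 3. Of all probe sets 3.57% were higher without odor replicate 3. The unpaired count was 1 without odor replicate 2 or vehicle replicate 1 or 2 and 3 without vehicle replicate 4. The block count of 7 was 2 without pair 1, 4 without pair 4 and 17 without pair 3. With the block and without pair 3, 3.79% of all probe sets were higher. What part neutrophil RNA plays in the early gene and cytokine differences was not tested beyond the covariate fit.

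Chemokine genes included 4 of 32 with an unadjusted p below 0.05, all higher (2.04% of all probe sets), and 7 higher with 1 lower under the block (3.19% and 3.02%). Ccl3, a chemokine of activated myeloid cells, was 12.73, 11.89, 11.93 and 12.06 in odor and 11.01, 10.90, 10.56 and 12.06 in vehicle. Vehicle replicate 4 alone reached the odor values, and the difference was 1.02 (SE 0.31, adjusted p = 0.982). Ccl7, a monocyte attractant, did not overlap between groups and differed by 0.53, at 5.57 to 5.97 in odor. In libraries titled GFP- Ccl3 and Ccl7 differed by 0.93 and -0.02, uncalled. The count of 4 was 2 without odor replicate 2 or vehicle replicate 3 and 7 without odor replicate 3. Hdc, the histamine-forming enzyme of mast cells and basophils, differed by 1.06, while the basophil protease Mcpt8 differed by -0.55. Irf1, an interferon-induced factor, differed by 0.73, and the interferon response list as a whole had a median of -0.01 with 1 of 23 higher and 1 lower.

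Macrophage markers had a median of 0.05 over 26, with 15 differences above 0. With the block 3 were higher and 1 lower, where 3.19% and 3.02% of all probe sets were. The 1 member with an unadjusted p below 0.05, Mertk, lay above the negative control in none of the libraries. C1qc, a complement component of resident macrophages, differed by -0.35. Tyrobp, a signalling adaptor that neutrophils also express, differed by 0.56 with odor higher in 3 of 4 pairs. Ms4a1, which encodes the B cell antigen CD20, was lower by 0.87, at 5.07, 5.80, 4.70 and 4.42 in odor and 6.16, 6.08, 5.79 and 5.44 in vehicle, and exceeded the negative control in 1 of 4 odor libraries. B and plasma cell markers had a median of -0.06. Of 11 erythroid markers 2 had a difference above 0, and Slc4a1, the red cell anion exchanger, differed by -0.73.

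**Figure D3:**
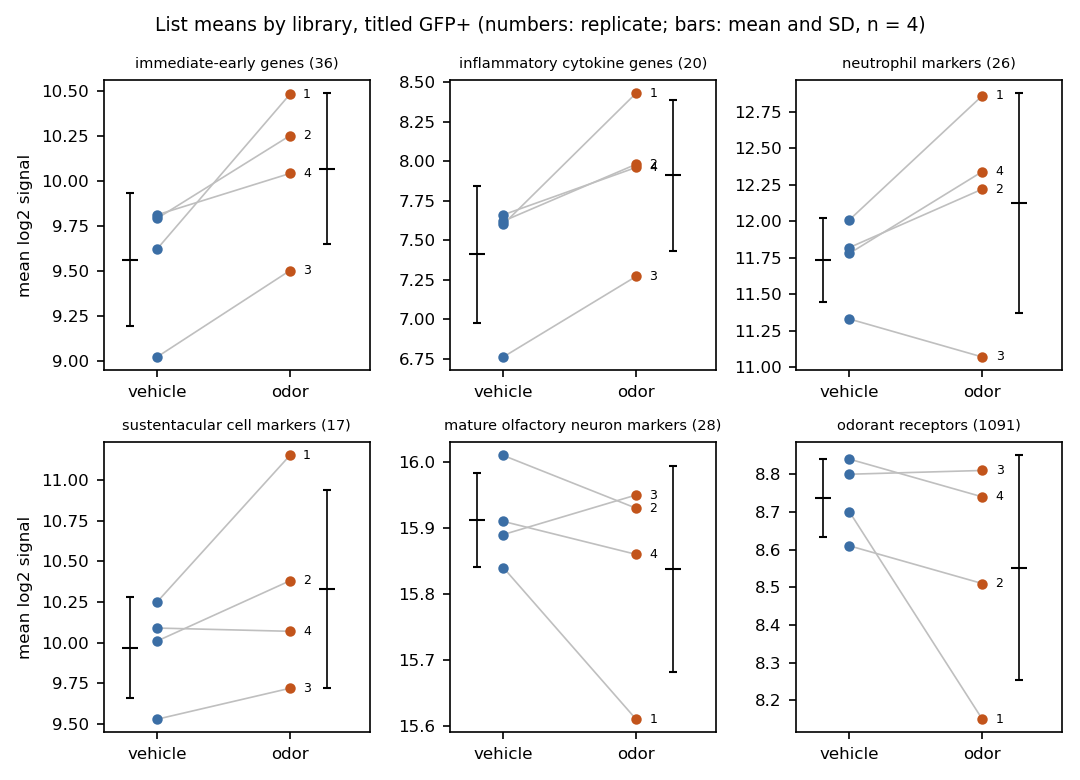
Mean log2 signal (vertical axis, a separate scale per panel) of 6 gene lists in each library titled GFP+, with the number of genes in brackets, lines joining the same replicate number, and bars giving mean and SD. Immediate-early and cytokine means are higher with odor in 4 of 4 pairs, and odor replicate 1 is the highest for neutrophil and sustentacular markers and the lowest for mature neuron markers and receptors.

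Genes of supporting and secretory cells tended upward without passing the test. Of 17 sustentacular markers 16 had a difference above 0, against 47.1% of all genes, with a median of 0.39. None had an unadjusted p below 0.05, and 5 did with the block, all higher (3.19% of all probe sets). The block count was 0 without pair 1, 3 without pair 2 and 9 without pair 4, and the unpaired count was 1 without odor replicate 2 and 5 without odor replicate 3. Cbr2, a carbonyl reductase, was 13.82, 12.68, 11.97 and 12.44 in odor and 12.35, 11.89, 11.31 and 12.52 in vehicle, a difference of 0.71. Odor replicate 1 was far the highest, and without it the median of the list was 0.12. Without odor replicate 3 the median was 0.59 and without vehicle replicate 3 it was 0.20, and within pools 3 and 4 it was 0.05. Sec14l3, a lipid transfer protein, differed by 0.67. In libraries titled GFP- Cbr2 and Sec14l3 differed by 0.51 and 0.65, uncalled.

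Ionocyte-like microvillar cell markers, which include the proton pump subunits of these cells, had a median of 0.56 over 10 genes. It was 0.37 without odor replicate 1 or vehicle replicate 2. Of the 10, 2 had an unadjusted p below 0.05 (2.04% of all probe sets were higher) and 5 with the block (3.19%), all higher, and the unpaired count ranged from 0, without odor replicate 1 or vehicle replicate 3 or 4, to 4, without odor replicate 3 or vehicle replicate 1, and was 1 without odor replicate 4 or vehicle replicate 2. Atp6v1c2 and Atp6v1b1, both pump subunits, differed by 0.59 and 0.63 with odor higher in all 4 pairs. Foxi1, the factor that defines this cell type, differed by -0.15 and was higher with odor in 0 of 4 pairs. The mean of the list was higher in all 4 pairs, by 0.41, 0.78, 0.37 and 0.29.

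Among Bowman's gland genes, Bpifb9a, a secreted lipid-binding protein of nasal mucus, was 7.75, 7.53, 9.52 and 8.59 in odor and 7.17, 5.90, 7.93 and 7.18 in vehicle. Its paralog Bpifb9b was 10.30, 9.23, 12.30 and 11.11 against 9.53, 8.08, 9.84 and 9.68. Both were higher with odor in all 4 pairs, by 1.30 and 1.45, with an adjusted p of 0.982 for both, and of 0.239 and 0.337 with the block. The highest values were in odor replicate 3, the library with the lowest neutrophil mean. In libraries titled GFP- Bpifb9a and Bpifb9b differed by 0.98 and 0.94, uncalled, and were again highest in odor replicate 3. As close paralogs their probe sets may not measure 2 separate genes. The median of all 18 gland markers was 0.19.

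Of 34 xenobiotic enzymes, which clear inhaled chemicals, 3 had an unadjusted p below 0.05 (2.04% of all probe sets were higher) and 8 with the block (3.19%), all higher, with a median of 0.19. Fmo1 differed by 0.72 and Cyp4b1 by 0.54, beside Fmo5. In libraries titled GFP- Fmo1 and Fmo5 both differed by -0.31, a contrast between sorts that did not pass the interaction test (adjusted p = 1 and 0.596). The count of 3 was 9 without odor replicate 3, and the block count of 8 was 4 without pair 1. The median was 0.03 without odor replicate 1 and 0.11 without vehicle replicate 3. Of 31 genes for ester, alcohol and aldehyde metabolism, which would handle the products of an acetate ester, 1 had an unadjusted p below 0.05. That gene, Aldh1a2, was above the negative control in none of the libraries.

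Most odorant receptors had a difference below 0 in these libraries. Of 1091 measured, 957 had a mean above the negative control. Differences were below 0 for 801 (73.4%), against 52.9% of all genes. The median was -0.19 against -0.01 over all genes. None was called (smallest adjusted p = 0.982, or 0.239 with the block). At an unadjusted p below 0.05, 98 were lower and 18 higher, and with the block 182 and 26. For all probe sets the lower share was 1.99% unpaired and 3.02% with the block, and the higher share 2.04% and 3.19%.

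This shift rested mainly on 1 library. Against the vehicle mean, the median receptor was -0.56 in odor replicate 1, -0.20 in replicate 2, 0.07 in replicate 3 and -0.03 in replicate 4. Without odor replicate 1, 60 (5.5%) were lower and 31 (2.84%) higher and the median was -0.06. Of all probe sets 1.51% were lower and 1.77% higher in that fit. With the block and without pair 1, 105 (9.62%) were lower and 74 (6.78%) higher, where 2.02% and 2.18% of all probe sets were. Without odor replicate 3, 154 were lower and 9 higher, where 3.04% and 3.57% of all probe sets were. Without odor replicate 4 the higher count was 10, where 1.89% of all probe sets were higher. Within pools 1 and 2 there were 171 lower and 7 higher, and within pools 3 and 4 there were 87 and 80. Of all probe sets 2.47% were lower and 3.05% higher within pools 1 and 2. Within pools 3 and 4 those shares were 2.23% and 2.98%. Scaled to the mature neuron markers, whose mean was also lowest in odor replicate 1, the counts were 76 lower (6.97%) and 26 higher (2.38%). The median receptor was then -0.11. That scaling moved the median of all probe sets to 0.07, with 0.797% of them lower and 3.03% higher.

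**Figure D4:**
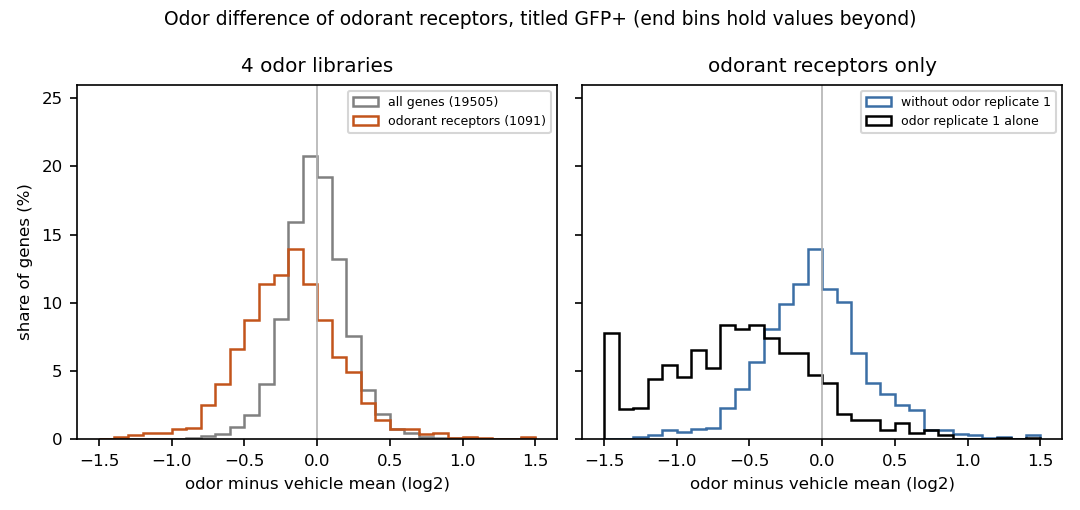
Share of genes (vertical axis, %) by odor minus vehicle difference (horizontal axis, log2) in bins of 0.1. On the left the 1091 odorant receptors lie to the left of all 19505 genes, and on the right the receptors of odor replicate 1 alone have a median of -0.56 against -0.06 for the other 3 odor libraries.

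The individual receptors with the smallest p-values were Olfr170, Olfr484, Olfr250, Olfr303, Olfr1411, Olfr212, Olfr623 and Olfr175. Chosen by that p, all 8 were lower in all 4 pairs, as were 16.2% of all receptors and 7.66% of all probe sets. Olfr484 was 8.53, 8.59, 8.23 and 9.04 in odor and 9.77, 9.93, 9.86 and 9.23 in vehicle, a difference of -1.10 (SE 0.21, adjusted p = 0.982). Olfr250 was 11.45, 11.14, 11.99 and 11.58 in odor and 12.41, 12.04, 12.78 and 12.65 in vehicle, a difference of -0.93. For both, every odor library lay below every vehicle library, as for 1.36% of all probe sets, but both were chosen by their small p. Differences were -0.55 for Olfr303, -0.60 for Olfr212, -0.56 for Olfr623, -0.94 for Olfr175 and -1.03 for Olfr1411, the last above the negative control in 1 of 4 odor libraries.

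Receptors higher with odor had larger p-values. Olfr1051 was 6.23, 6.30, 7.38 and 7.00 in odor and 5.21, 5.74, 5.38 and 6.50 in vehicle, a difference of 1.02 (SE 0.32, adjusted p = 0.982). Olfr1229, Olfr1122, Olfr1474, Olfr998 and Olfr947-ps1 differed by 0.48, 0.59, 0.60, 0.93 and 0.51. Olfr606 and Olfr1008 differed by 0.82 and 0.69 at levels not above the negative control. Olfr1220, singled out after its value was seen, had the highest difference of all receptors, 1.77 (SE 0.70). It was 10.74, 8.90, 11.28 and 12.91 in odor and 9.21, 8.09, 9.58 and 9.88 in vehicle, and so was higher in all 4 pairs (adjusted p = 0.982, and 0.337 with the block). In libraries titled GFP- it differed by 1.52.

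Olfr170 was the only gene called in the test of whether the odor difference depended on the sort. Here it was 9.69, 9.86, 9.97 and 10.12 in odor and 11.68, 11.20, 10.87 and 10.66 in vehicle. All odor libraries lay below all vehicle libraries, by 1.19 on average (SE 0.21, adjusted p = 0.982). In libraries titled GFP- it was 12.55, 12.16, 12.30 and 12.08 in odor and 10.07, 9.65, 10.82 and 10.10 in vehicle. There it rose by 2.11 (adjusted p = 0.000854 in the fit of 16 arrays). The same fit gave an adjusted p of 0.416 for libraries titled GFP+. The interaction was -3.30 (adjusted p = 0.000416), the only 1 of 22206 called (0.0045%), and 653 (2.94%) had an unadjusted p below 0.05. Left-out pools gave interactions between -3.60 and -3.08, each called.

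Other receptors had opposite signs in the sorts without passing that test. Olfr183, singled out after its value was seen, was 5.61, 5.69, 6.50 and 6.32 in odor and 7.32, 6.36, 7.53 and 8.10 in vehicle, a difference of -1.30 against 1.55 in libraries titled GFP- (interaction adjusted p = 0.596). Olfr213, chosen likewise, differed by -0.71 here and 1.89 there (interaction adjusted p = 0.596). As a set, the 98 lower receptors were not opposed: 38 of them (38.8%) had a difference above 0 in libraries titled GFP-, against 430 of 1091 (39.4%). At an unadjusted p below 0.05 there in the fit of 16 arrays, 5 of the 98 were higher and 10 lower. Of all 1091 receptors 35 were higher and 51 lower. Over all probe sets 1.72% were higher there. In the run of neighbouring receptors from Olfr172 to Olfr209, picked after its values were seen, 8 of 25 (32.0%) had an unadjusted p below 0.05 and were lower. That share was 8.98% over all receptors and 1.99% over all probe sets. Smaller runs had higher shares, such as Olfr211 to Olfr215 with 3 of 5 (60%). The median of the run from Olfr172 to Olfr209 was -0.39 here and 0.11 in libraries titled GFP-.

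**Figure D5:**
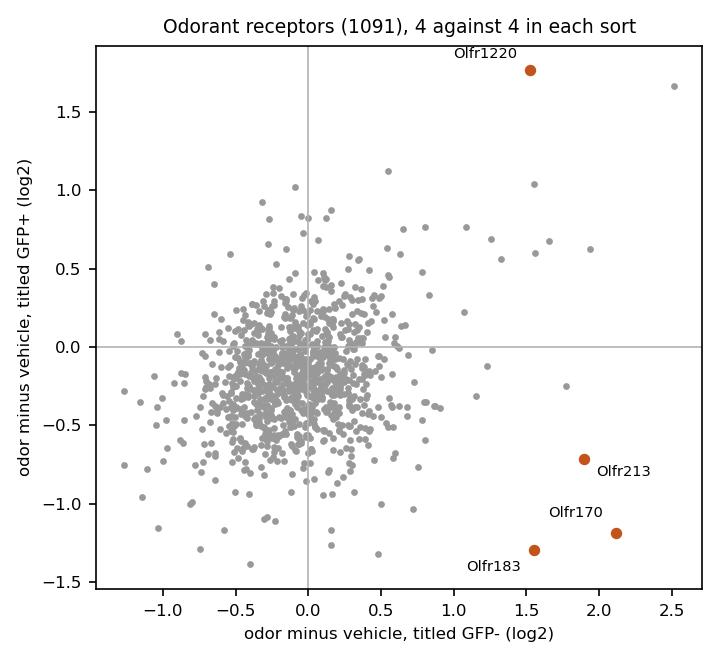
Odor minus vehicle difference (log2) of 1091 odorant receptors in libraries titled GFP+ (vertical axis) against libraries titled GFP- (horizontal axis), 1 point per receptor. Olfr170, Olfr183 and Olfr213 lie at the lower right, with negative differences in titled GFP+ and positive ones in titled GFP-, and Olfr1220 lies high in both.

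Other neuronal lists had few members with small p-values. Of 20 transduction genes none had an unadjusted p below 0.05 in either fit, and Cnga4, a subunit of the cyclic nucleotide-gated channel, differed by -0.22. Of 28 mature neuron markers none did in the unpaired fit and 22 had a difference below 0, with a median of -0.09 that was -0.06 without vehicle replicate 2. Without odor replicate 1 it was -0.001. Robo1, an axon guidance receptor for Slit ligands, did not overlap between groups at 9.53, 10.34, 10.21 and 10.36 in odor and 10.75, 10.92, 11.13 and 10.76 in vehicle, a difference of -0.78 (SE 0.20, adjusted p = 0.982). Its relative Robo2, which guides axons of the dorsal zone, differed by -0.35. Taar6, a trace amine-associated receptor, differed by -0.69 here and -0.65 in libraries titled GFP-.

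Among immature neuron genes the stress-responsive pseudokinase Trib3 differed by 0.80 and the microtubule regulator Stmn4 by -0.50, with a median of -0.15 over 25. Rtp4, a receptor chaperone that interferon also induces, differed by -0.41. Of 30 cell cycle genes 10 (33.3%) had a difference above 0, against 47.1% of all genes. Mcm3, a subunit of the replicative helicase, did not overlap between groups and differed by -0.64. Txnrd1, the thioredoxin reductase, was lower by 0.39 with no overlap, whereas the cystine transporter gene Slc7a11 differed by 0.75. Among the 10 named genes with the smallest p-values that were lower without overlap, those that are not receptors were Lysmd4, Uqcc1, Riox1 and Mettl6, at -0.70, -0.54, -0.63 and -0.53. Uqcc1 is an assembly factor of respiratory complex III, Riox1 a ribosomal oxygenase and Mettl6 a transfer RNA methyltransferase.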

How the data were processed

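Per the submitters' processing notes, the authors made the deposited log2 signals with Affymetrix Expression Console; no version, normalization or array genome build is given in the sources used. The deposited values lie between 1.68 and 19.33 for 28846 probe sets, of which 6640 controls were left out of the tests. Of the 22206 tested, 19572 have 1 gene symbol, 2634 none and 0 several; 55 of the 19505 genes have several probe sets and are represented by the brightest. RefSeq (GRCm38.p6) gave names, neighbour order and promoter windows.

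Groups follow the sample titles. The 8 libraries were fitted with lmFit and eBayes of limma 3.58.1 (R 4.3.3; 6 residual degrees of freedom, prior 4.37), unpaired, with Benjamini-Hochberg adjustment over 22206 probe sets and a threshold of 0.05. Adjusted p-values and unadjusted p-values in the text are from this fit unless the replicate block, the 16 arrays or the interaction (12 residual degrees of freedom) is named. Those for libraries titled GFP- are all from the fit of 16 arrays. A fit of 8 libraries was preferred because many immune and progenitor genes lie near background in libraries titled GFP-. Fold changes are 2 to the power of a log2 difference. The number of arrays limits the precision. "Above the negative control" means above the median of 5222 negative control probe sets on the same array.

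Same-numbered odor and vehicle libraries had deviation correlations of 0.26, 0.28, 0.26 and 0.17, all above 0.1, which sets the pairing. Odor replicate 4, however, correlated best with vehicle replicate 3 (0.19). The bar of 0.1 thus did not separate same-numbered pairs from all others, and the pairing rests on the values then tested. The labels state no shared batch.

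Genes were named by rule: S100a5, called genes (none in the unpaired fit), up to 10 in each direction by smallest unadjusted p among named, non-provisional genes without overlap, up to 8 receptors in each direction and up to 3 of each of 43 lists by the same p, and defining markers; others are marked as singled out or named for contrast. The lists, like the choice of libraries, were made with earlier results of these data known. List counts set beside those of all probe sets are therefore descriptive and not independent tests. The fit was tested on simulated data.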

Additional observations from a re-analysis of the deposited data

Results flagged for a closer look

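Of 152 groups of 4 libraries examined for a value far from the rest, 5 had one; chance gives about 1 in 20. The mean of inflammatory cytokine genes was 6.76 in vehicle replicate 3 against 7.60 to 7.66 in the other vehicle libraries. The median negative control was 5.43 in the same library against 5.17 to 5.21. The mean of B and plasma cell markers was 7.03 in vehicle replicate 2 against 6.32 to 6.36. The mean of oxidative phosphorylation genes was 13.01 in odor replicate 1, with the others at 12.97. Vmn1r207, not above the negative control, was 4.98 in odor replicate 3 against 4.55 to 4.61.

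The odor difference of Olfr170 differed between the sorts, at -3.30 for libraries titled GFP+ minus titled GFP- (limma interaction, adjusted p = 0.000416). The cause was not tested.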

How the results depend on the processing

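The count of called probe sets was 0 in the unpaired fit. It was 2 with all 16 arrays (Pcdh10 and Camk2n1), 1 with the replicate block and 1 with the 2 pool sets as a block, the last added after seeing the data (Pcdh10 in both, adjusted p = 0.0314 and 0.0255). Leaving out a library gave 0 each time, and the replicate block with a pair left out gave 0 to 1. It was 0 under quantile normalization, median centring, centring on mature neuron markers, the filter on dim probe sets, a trended robust prior, array weights and the immune covariate, as it was within either pool set, with 555 to 1226 at an unadjusted p below 0.05 against 894. The filter tests fewer genes, which gives the 555. Centring on mature neuron markers moved the unadjusted split from 453 higher and 441 lower to 672 and 177, and the filter moved it to 219 and 336. S100a5 stayed above 0 and uncalled under all 24 alternatives, as did the uncalled receptor count of 0, and none of the 71 other named genes changed sign. The interaction count was 1 under all 12 alternatives. The replicate block changed no other call. The cause of the other shifts was not tested. With 4 pools a side, signal near the negative control limits dim probe sets, and differences above 1 on the log2 scale can miss the adjusted threshold.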
